A study of Mus musculus with 4 samples.

Results

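The nuclear factor I (NFI) family comprises *Nfia*, *Nfib*, *Nfic* and *Nfix*, and open chromatin at these 4 of the 21755 protein-coding genes of GENCODE mm10 was examined in sorted heart nuclei. The members were taken by name. A peak was given to a gene when it overlapped 250 bp to either side of an annotated transcript start, lay inside the gene, or lay within 100 kb of it with no protein-coding gene closer. By this rule the 4 genes held 140 of the 78912 peaks of the GFP- list and 124 of the 65008 peaks of the GFP+ list.

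NFI proteins are transcription factors that bind DNA as dimers through a conserved amino-terminal domain, and all 4 recognise the same palindromic site, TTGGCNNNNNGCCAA. They can act on condensed chromatin and are known for timing differentiation: NFIA in glia and brown fat, NFIB in lung and hair follicle stem cells, NFIC in tooth roots, and NFIX in the switch from embryonic to fetal muscle. Each gene has several annotated starts. Those of coding transcripts can give proteins with different amino termini, and some starts belong to non-coding transcripts only.

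Nuclei came from whole hearts of male mice of 8 to 12 weeks on a C57BL/6 background. Every animal carried both the NuTRAP reporter and Cdh5-Cre, so GFP marked the nuclei of cells of endothelial descent, and GFP+ (EC) nuclei were separated from GFP- (non-EC) nuclei by flow cytometry. GFP- nuclei are a mixture of cardiomyocyte, fibroblast, mural and other nuclei, in which fewer nuclei of a type and weaker signal per nucleus cannot be told apart. There were 2 ATAC-Seq samples of each population, each made from 100 to 50000 nuclei, and for each population the deposited data are 1 list of peaks, which the authors called on the pair of replicates jointly. ATAC-Seq reads where the Tn5 transposase can insert into DNA. The lists hold no read counts, so the depth of the samples was not analysed, no difference below has a replicate check, and no p-value is given.

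Each peak is described by its area, a signal summed over the peak's length by the authors' peak caller, and by the percentile of that area within its own list, from 0 for the smallest to 100 for the largest. Where a list had no peak, the percentile was set to 0. At the starts of 7 endothelial marker genes the median percentile was 48.3 in GFP- and 85.3 in GFP+, with *Tek* alone lower in GFP+ (81.1 against 54.1). Of 7 fibroblast markers, 6 had a start peak in GFP- and 2 in GFP+. Mural markers had start peaks at 5 and 2 of 5 genes. All 5 cardiomyocyte markers had a start peak in both lists, with medians of 99.8 and 94.3, and none of 3 glial markers had one in either. Of 4 macrophage and leukocyte markers, 1 had a start peak in GFP- and 1 in GFP+. The part of these cell types in the NFI values was not tested.

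The main starts of all 4 genes were open in both populations. The highest percentile of a start peak was 97.6 in GFP- and 96.6 in GFP+ for *Nfia*, 99.8 and 99.5 for *Nfib*, 99.4 and 99.5 for *Nfic*, and 97.7 and 97.2 for *Nfix*. The differences, GFP+ minus GFP-, were -0.944, -0.354, 0.0726 and -0.494 points, against a median of -0.814 over the protein-coding genes with a start peak. Transcript starts whose windows met were joined, which left 18 annotated starts in the family. Of these, 14 had a GFP- peak and 12 a GFP+ peak, while 34.3% and 32.4% of the 52275 starts of all protein-coding genes did. Every start with a GFP+ peak also had a GFP- peak, and 4 starts had none in either list. Of the 12 GFP- peaks at NFI starts, 1 overlapped no GFP+ peak, beside a background of 8.26%. None of the 11 GFP+ start peaks lacked a GFP- counterpart, beside a background of 3.23%. When peaks were ranked by area per bp, which removes the part of length, the highest starts differed by -6.72 points for *Nfia*, 0.134 for *Nfib*, -4.03 for *Nfic* and -12.2 for *Nfix*. The *Nfib* value compares different starts. By area per bp the highest GFP+ start peak was at Nfib-211 (90.2), and the highest GFP- one at Nfib-201 to Nfib-210 (90.1). At the latter start the GFP+ peak ranked at 89.9.

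**Figure D1:**
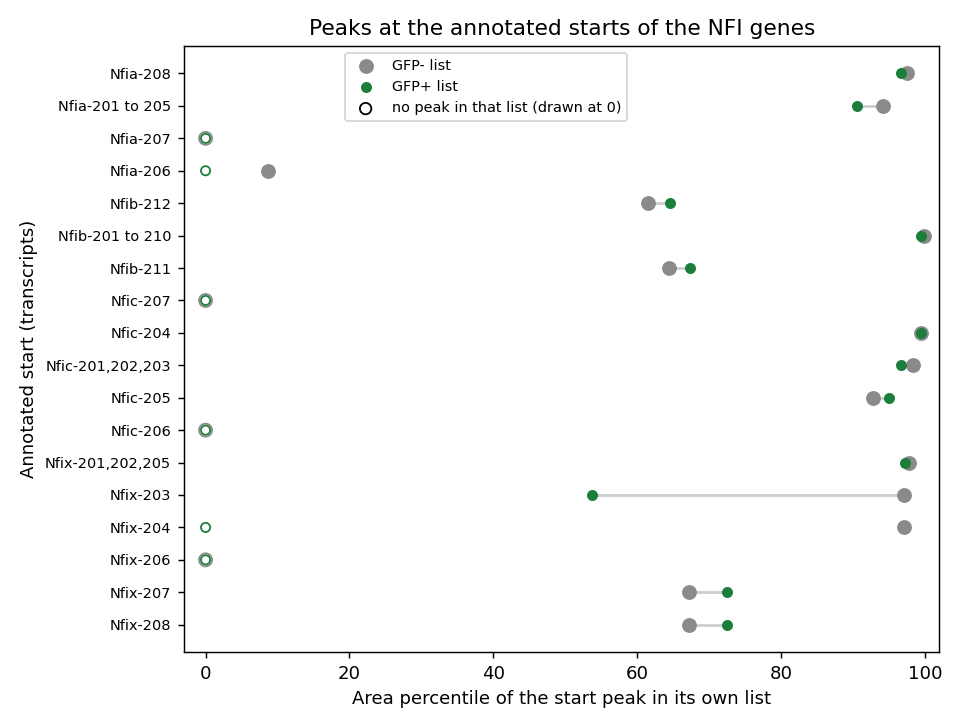
Percentile of the peak at each of the 18 annotated starts of the NFI genes, labelled by transcript, with grey points for the GFP- list, green points for the GFP+ list and open points at 0 where a list had no peak. The widest gaps between the lists are at Nfix-203 (97.1 and 53.6) and Nfix-204 (97.1 and no peak), 4 starts have no peak in either list, and Nfib-212, Nfib-211, Nfix-207 and Nfix-208 lie at 61.5 to 72.5.

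*Nfia* lies on the plus strand at chr4:97772734-98118874 (346 kb, 8 transcripts). At its 5′ end, the start of Nfia-208, a GFP- peak of 2611 bp ranked at percentile 97.6 and a GFP+ peak of 2476 bp at 96.6. The start shared by Nfia-201 to Nfia-205 had peaks at 94.2 in GFP- and 90.5 in GFP+. This second window also holds the start of *E130114P18Rik*, a gene that overlaps *Nfia* and takes its upstream flank, so these peaks cannot be assigned to *Nfia* alone. The same holds for the peaks at Nfia-208 and the intronic peaks between these starts, whose summits lie inside *E130114P18Rik*. Nfia-207, which starts inside the gene, had no peak in either list, and Nfia-206, a non-coding transcript, had a small peak at percentile 8.67 in GFP- only.

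Away from the starts *Nfia* held fewer peaks in GFP+ nuclei (27 inside the gene and 2 in its flanks) than in GFP- nuclei (35 and 7). Of all its 45 GFP- peaks, 3 of them at starts, 25 overlapped a GFP+ peak (55.6%, Wilson 95% interval 41.2 to 69.1%). Of all its 31 GFP+ peaks, 2 of them at starts, 26 overlapped a GFP- peak (83.9%, 67.4 to 92.9%). Over all protein-coding genes these shares were 71.0% and 87.0%. Such intervals cover counting error only, and the peaks of a gene are not independent. Behind the gene, 5 of 7 GFP- peaks of the downstream flank overlapped no GFP+ peak, beside 33.7% of such peaks of all protein-coding genes, the largest of them at chr4:98181598-98182327 with a percentile of 58.3. Joining overlapping peaks gave 50 *Nfia* regions, of which 40 ranked lower in GFP+ and 10 higher, where 67.8% of the regions of all protein-coding genes ranked lower. These counts include 20 regions with a GFP- peak only, which rank lower by rule, and 5 with a GFP+ peak only. Among the 25 *Nfia* regions in both lists, 20 ranked lower and 5 higher. Of such regions of all protein-coding genes, 33069 of 50852 ranked lower. Inside the gene, the GFP- peaks at chr4:97860412-97860704 and chr4:97990415-97990985 ranked at 56.9 and 57.3 and had no GFP+ counterpart. The largest intronic peak, at chr4:97868090-97869504 in GFP-, ranked at 92.8 in GFP- and 92.4 in GFP+.

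A cluster in the last part of *Nfia*, with regions centred 329 to 336 kb from its 5′ end, held regions that ranked higher and regions that ranked lower in GFP+ within a few kb. A GFP- peak at chr4:98104119-98104780 ranked at percentile 81.3, and the GFP+ peak of 342 bp that overlapped it ranked at 1.32, the largest difference among NFI regions found in both lists. On its 3′ side the GFP+ list had a peak of 882 bp at chr4:98105706-98106587, at percentile 79.1, with no GFP- peak over it. On its 5′ side another GFP+ peak without a GFP- counterpart, at chr4:98102689-98103491, ranked at 56.1, and the region before that, at chr4:98101278-98102168, ranked at 43.0 in GFP- and 63.1 in GFP+. The region at the far side of the cluster, chr4:98108689-98109580, ranked at 76.0 in GFP- and 45.7 in GFP+. The 200 bp around the summits of the main GFP- and the main GFP+ peak of this cluster are shown because the ranks of the populations part there. Both are intronic and given 5′ to 3′ from GRCm38.p6, and neither holds any of the 8 motif words searched below, so no letter is in capitals.
Nfia GFP- peak, plus strand, chr4:98104194-98104393: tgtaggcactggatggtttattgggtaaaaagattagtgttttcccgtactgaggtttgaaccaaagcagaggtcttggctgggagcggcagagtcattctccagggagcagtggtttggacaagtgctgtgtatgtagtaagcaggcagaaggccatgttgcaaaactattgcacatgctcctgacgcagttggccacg
Nfia GFP+ peak, plus strand, chr4:98106141-98106340: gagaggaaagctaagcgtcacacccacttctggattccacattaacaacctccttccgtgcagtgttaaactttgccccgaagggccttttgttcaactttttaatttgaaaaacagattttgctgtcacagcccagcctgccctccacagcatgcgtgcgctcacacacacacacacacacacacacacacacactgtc

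*Nfib*, on the minus strand at chr4:82290173-82705750, is the longest member (416 kb, 12 transcripts). Its strongest start, shared by Nfib-201 to Nfib-210, lies 199.97 kb inside the gene record, and its GFP- peak of 4533 bp stood at position 155 of 78912 by area. The GFP+ peak there was 3219 bp long and stood at position 358 of 65008. Both peaks ended at nearly the same base on the 3′ side (chr4:82504195 and chr4:82504193), and the GFP- peak reached farther upstream, to chr4:82508727 against chr4:82507411, though a second GFP+ peak at chr4:82507630-82508367 (percentile 59.5) lay within that stretch. The distal 5′ start, Nfib-212, ranked at 61.5 in GFP- and 64.5 in GFP+, and the start of the non-coding Nfib-211 at 64.5 and 67.4.

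*Nfib* was the member with the most GFP+ peaks, 50 against 48 in GFP-, and stood at position 14 of 21755 genes by number of GFP+ peaks and at position 30 by GFP- peaks. These positions are not scaled by gene length. Per 100 kb of gene *Nfib* held 11.6 GFP- and 12.0 GFP+ peaks, *Nfia* 13.0 and 8.96, *Nfic* 23.5 and 25.2, and *Nfix* 32.8 and 27.9. The share of *Nfib* covered by peaks exceeded that of 71.8% of genes in GFP- and 73.3% in GFP+. Of the *Nfib* peaks, 14 GFP- and 14 GFP+ ones overlapped no peak of the other list. They ranked from percentile 7.24 to 51.2 in GFP- and from 0.849 to 67.6 in GFP+, so some were among the weakest of their list. Thus 72.0% of GFP+ peaks were shared (58.3 to 82.5%), against 87.0% over the peaks of all protein-coding genes, and 70.8% of GFP- peaks (56.8 to 81.8%), against 71.0%. The largest GFP+ peak without a counterpart lay in an intron at chr4:82359086-82359573 (percentile 67.6), and the largest such GFP- peak in an intron at chr4:82641134-82641752 (51.2). The largest peak away from the starts, in the intron at chr4:82512206-82513762, ranked at 95.3 in both lists. Among regions found in both lists, chr4:82246201-82246738 behind the gene went from 6.96 in GFP- to 58.8 in GFP+, and the intronic chr4:82435573-82436317 from 49.2 to 78.7. In the other direction chr4:82415773-82416386 went from 51.6 to 6.08 and chr4:82530771-82531637 from 86.4 to 54.4. Of the 61 *Nfib* regions, 30 ranked higher and 31 lower in GFP+, with a median difference of -0.156 points. Among the 33 found in both lists, 16 ranked higher and 17 lower. The summit windows of the largest peak of each list without a counterpart are shown. Capitals mark the TCF21 word AACAGCTG in the GFP- window and the GATA word AGATAAG, read on the other strand, in the GFP+ window.
Nfib GFP- peak, plus strand, chr4:82641503-82641702: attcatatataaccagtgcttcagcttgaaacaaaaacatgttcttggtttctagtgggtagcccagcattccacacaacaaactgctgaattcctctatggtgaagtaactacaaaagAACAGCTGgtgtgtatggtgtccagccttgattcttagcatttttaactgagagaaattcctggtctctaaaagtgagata
Nfib GFP+ peak, plus strand, chr4:82359238-82359437: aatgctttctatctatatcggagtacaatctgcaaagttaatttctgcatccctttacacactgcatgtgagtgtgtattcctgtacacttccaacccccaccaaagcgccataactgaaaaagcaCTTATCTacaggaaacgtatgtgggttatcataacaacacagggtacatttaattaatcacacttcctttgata

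*Nfic*, on the minus strand at chr10:81396186-81455635, is the shortest member (59.45 kb, 7 transcripts) and the most densely covered. Peaks covered 43.2% of the gene in GFP- and 41.9% in GFP+, while for *Nfia* and *Nfib* the shares were 5.38 to 6.80%. The start of Nfic-204 ranked at 99.4 in GFP- and 99.5 in GFP+, that of Nfic-201 to Nfic-203 at 98.3 and 96.7, and that of Nfic-205 at 92.8 and 95.03. The 5′ start, Nfic-207, and the start of Nfic-206 had no peak in either list. The largest peak away from starts in the whole family lay in an *Nfic* intron. It was 4949 bp long in GFP- (chr10:81410394-81415342, position 116 of 78912) and 5694 bp long in GFP+ (chr10:81410332-81416025, position 84 of 65008). Of 14 GFP- peaks 12 overlapped a GFP+ peak, and of 15 GFP+ peaks 12 overlapped a GFP- peak (85.7% and 80%, beside 71.0% and 87.0%). The largest without a counterpart was an exonic GFP+ peak at chr10:81404616-81405097, at percentile 51.5, and the largest such GFP- peak, in an intron at chr10:81418227-81418963, ranked at 16.3. Neighbouring genes lie close to *Nfic* and *Nfix*, and neither had a flank peak under the rule.

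*Nfix*, on the minus strand at chr8:84699876-84800344 (100.5 kb, 8 transcripts), had a 5′ start, shared by Nfix-201, Nfix-202 and Nfix-205, that ranked at 97.7 in GFP- and 97.2 in GFP+. Its internal coding start differed more than any other start of the family. In GFP- nuclei a single peak of 2785 bp (chr8:84773362-84776146, percentile 97.1) covered the starts of both Nfix-203 and Nfix-204. In GFP+ nuclei the same stretch held a peak of 446 bp at chr8:84773854-84774299 (53.6), which reached the window of Nfix-203 but not that of Nfix-204, and a second peak at chr8:84775015-84776310 (74.1). The starts of Nfix-207 and Nfix-208, near the 3′ end, shared a peak at 67.1 in GFP- and 72.5 in GFP+, and Nfix-206 had none. The 200 bp before the start of Nfix-203 are shown on the minus strand, with capitals for the NFI word TTGGCA read on the other strand.
Upstream of Nfix-203, minus strand, chr8:84774370-84774569: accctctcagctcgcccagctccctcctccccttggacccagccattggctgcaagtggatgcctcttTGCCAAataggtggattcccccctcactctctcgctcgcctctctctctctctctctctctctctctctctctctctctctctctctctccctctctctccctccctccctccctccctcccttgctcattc

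Of the 33 *Nfix* peaks in GFP-, 24 overlapped a GFP+ peak (72.7%, 55.8 to 84.9%), and 26 of the 28 GFP+ peaks overlapped a GFP- peak (92.9%, 77.4 to 98.0%), beside the 71.0% and 87.0% of all protein-coding genes. Of the 34 regions 25 ranked lower in GFP+, a share near the 67.8% of all regions, with a median difference of -7.35 points. Among the 23 found in both lists, 16 ranked lower and 7 higher. The intronic GFP- peak of 1821 bp at chr8:84711419-84713239, at percentile 86.9, was the largest NFI peak of either list without a counterpart, and a further GFP- peak at chr8:84766324-84766901 ranked at 75.8. The larger of the 2 GFP+ peaks without a counterpart, at chr8:84736360-84736877, ranked at 15.7. The largest peak away from the starts lay near the 5′ end, at chr8:84788052-84791160 in GFP-, and ranked at 97.8 in GFP- and 94.9 in GFP+. Behind it, chr8:84785456-84787212 ranked at 86.0 and 61.8 and chr8:84784148-84785341 at 73.3 and 49.2, and deeper in the gene chr8:84741788-84744618 ranked at 94.8 and 72.2. Peaks covered 39.9% of the gene in GFP- and 31.1% in GFP+. The 3′ end of *Nfix* went the other way. There the gene overlaps *Lyl1*, a helix-loop-helix factor of blood and endothelial cells, and the region at the *Lyl1* start (chr8:84700907-84702404) ranked at 72.3 in GFP- and 86.8 in GFP+. A second region inside *Lyl1*, chr8:84703693-84705992, ranked at 74.5 and 81.3, and the region at the *Trmt1* start, chr8:84698720-84700609, at 83.2 and 90.2. Which gene these peaks serve was not tested. The summit window of the largest GFP- peak without a counterpart is shown and holds none of the words.
Nfix GFP- peak, plus strand, chr8:84712607-84712806: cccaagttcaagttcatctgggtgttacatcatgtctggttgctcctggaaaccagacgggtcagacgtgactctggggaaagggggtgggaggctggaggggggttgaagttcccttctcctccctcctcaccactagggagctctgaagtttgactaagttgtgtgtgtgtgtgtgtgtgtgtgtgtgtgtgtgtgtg

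**Figure D2:**
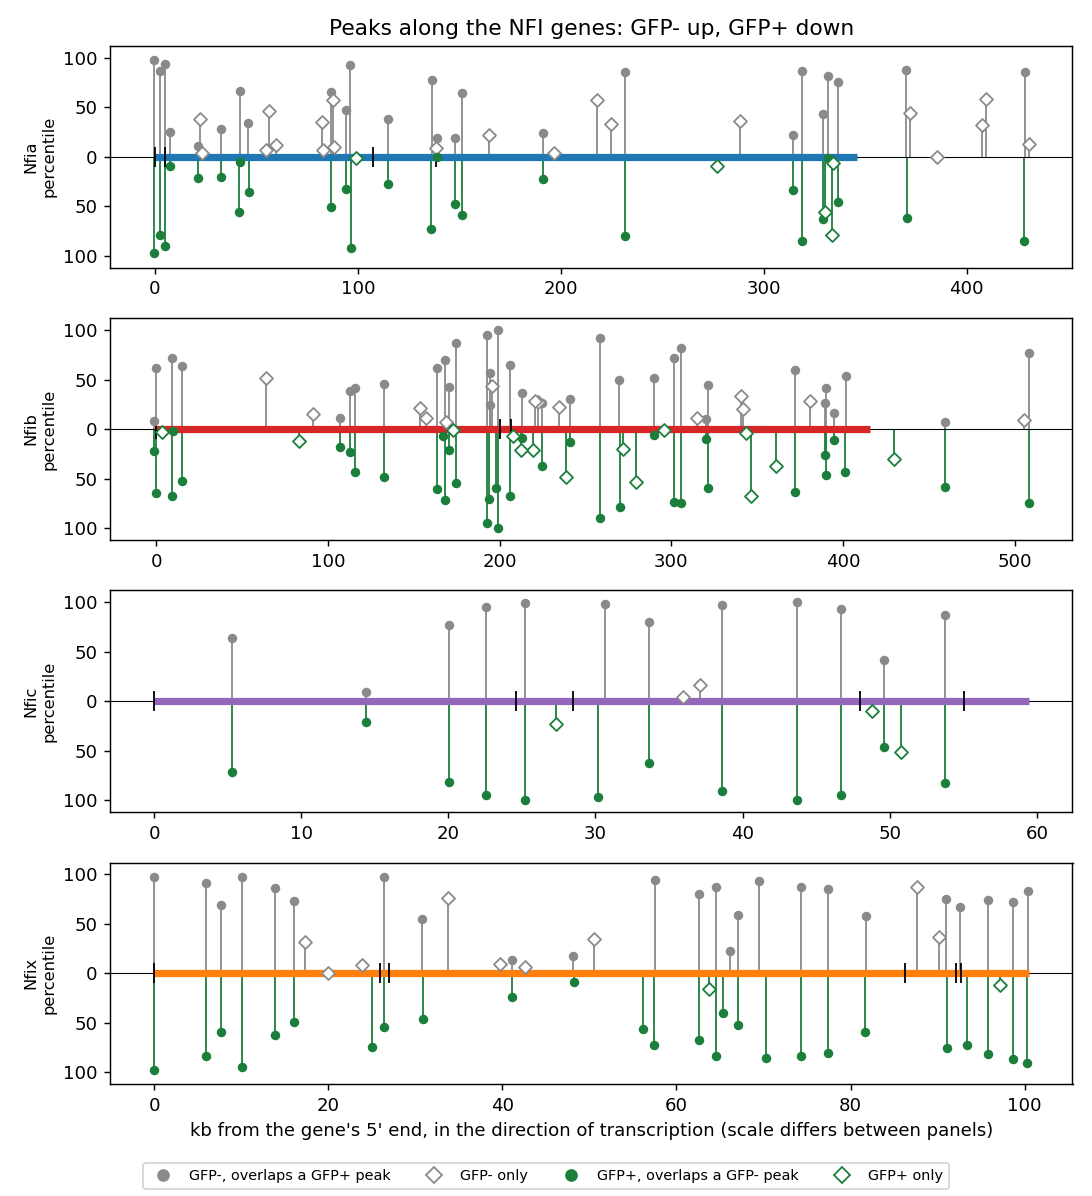
Each NFI gene drawn from its 5′ end in the direction of transcription, in kb, with 1 stem for each peak at its summit and its percentile as height (GFP- upwards in grey, GFP+ downwards in green). Open diamonds are peaks that overlap none of the other list, black ticks are annotated starts and the coloured bar is the gene. The GFP+ diamonds gather in Nfib (14 peaks) and in the last part of Nfia, and the tallest GFP- diamond is in Nfix at 86.9.

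Over the family 95 of 140 GFP- peaks overlapped a GFP+ peak (67.9%, 59.7 to 75.0%). The other 45, or 32.1%, were found in GFP- only, close to the 29% of all peaks given to protein-coding genes. Of the 124 GFP+ peaks, 24 (19.4%) were found in GFP+ only, where the background was 13%, and *Nfib* accounted for 14 of the 24. In introns 38 of 116 GFP- peaks (32.8%) and 21 of 104 GFP+ peaks (20.2%) had no counterpart, against backgrounds of 34.2% and 16.2%. None of these shares was tested.

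The transcription factor families EBF and TEAD served for comparison. EBF genes, among them *Ebf1* of stromal and B cells, held 71 GFP- peaks and 30 GFP+ peaks, and 64.8% of the former had no GFP+ counterpart. TEAD genes, which encode the DNA-binding partners of YAP, held 47 and 37, and 29.8% of the GFP- peaks had none. The NFI share of 32.1% was thus nearer to that of TEAD. The GFP+ peaks without a counterpart were 4 of 30 (13.3%) at EBF genes and 3 of 37 (8.11%) at TEAD genes. Both shares were below the 19.4% of NFI genes (24 of 124), but *Nfib* alone held 14 of those 24 peaks. Over all protein-coding genes the share was 13%. The difference between the families was not tested.

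**Figure D3:**
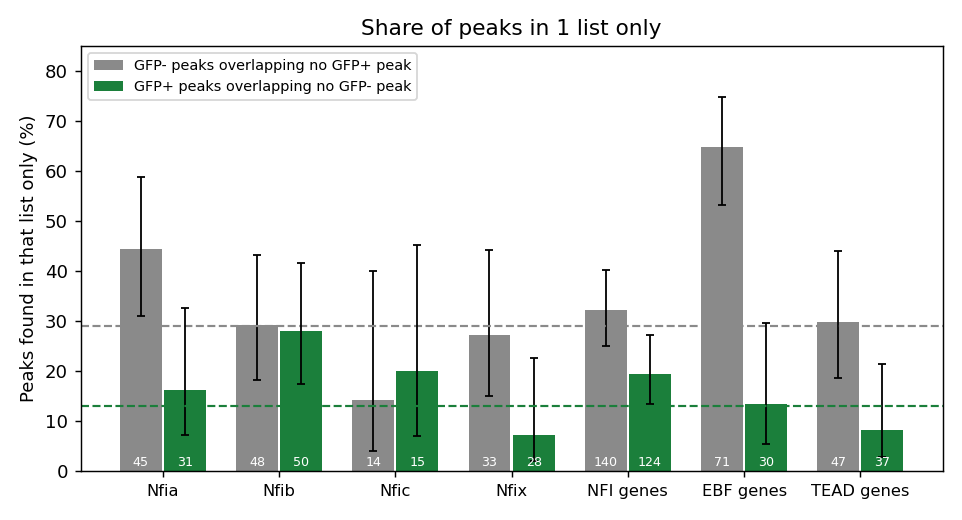
Percent of the peaks of each list that overlap no peak of the other list (grey, GFP-; green, GFP+), for each NFI gene, the NFI family and the EBF and TEAD families, with Wilson 95% intervals and the number of peaks in white. Dashed lines are the shares over all protein-coding genes (29% and 13%), and the green bar of Nfib stands at 28.0%.

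The peaks of the 4 genes joined into 160 regions, of which 91 were found in both lists, 45 in GFP- only and 24 in GFP+ only. Their median difference in percentile was -4.25 points (95% interval of the median -7.21 to -0.944), beside -3.69 for the regions of all protein-coding genes, -17.0 for EBF genes and -6.08 for TEAD genes. The interval treats the regions as independent, which neighbouring regions of 4 genes are not, and it covers no variation between replicates. A region found in 1 list only counts as 0 in the other. Over the 91 regions in both lists the median was -1.63 points, beside -1.81 for such regions of all protein-coding genes. By gene the median over all regions was -7.40 for *Nfia*, -0.156 for *Nfib*, 0.0726 for *Nfic* and -7.35 for *Nfix*. With the 50000 peaks of largest area in each list the family's median was 0.280 points. Among the 91 regions in both lists, 11 were lower in GFP+ by over 20 points, where the background was 12%, and 4 were higher by over 20, where it was 4.93%. Those 4 were 2 of *Nfia* and 2 of *Nfib*. Of the 11, 3 belonged to *Nfia*, 4 to *Nfib* and 4 to *Nfix*, and *Nfic* had none in either direction.

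**Figure D4:**
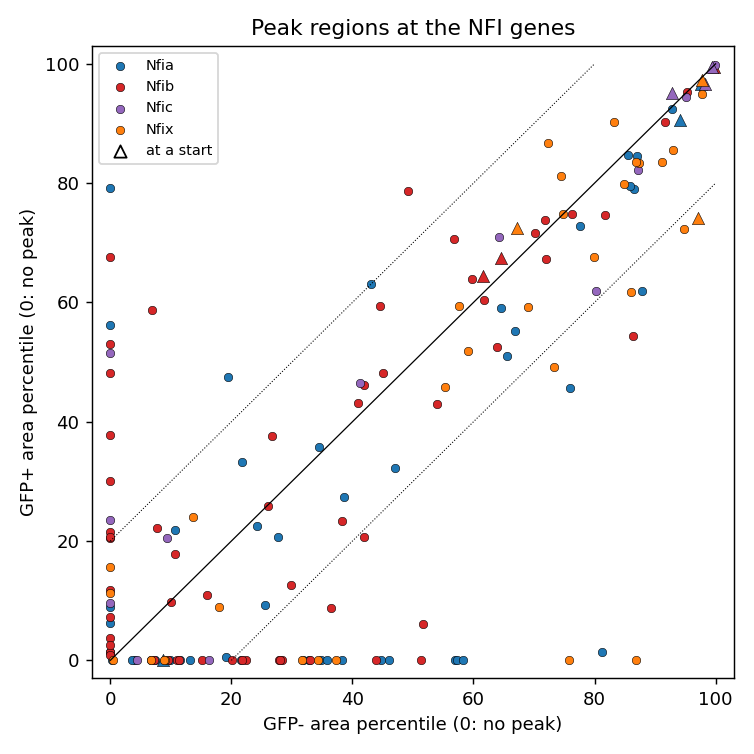
Area percentile of each of the 160 NFI regions in the GFP- list (horizontal) and the GFP+ list (vertical), coloured by gene, with triangles at annotated starts and points on an axis where a list had no peak. Dotted lines mark 20 points from the diagonal, and of the 12 start regions that of the internal Nfix start (97.1 and 74.1) lies beyond them.

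The family's own binding site was looked for in the 200 bp around each summit, on both strands. The full palindrome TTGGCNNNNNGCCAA was in none of the 140 GFP- and none of the 124 GFP+ windows (Wilson upper limits 2.67% and 3.005%). Over all peaks it was in 0.0621% of GFP- and 0.0739% of GFP+ windows, so windows at NFI genes were too few to show a share of that size. The shorter word TTGGCA was in 29 of 140 GFP- windows (20.7%) and 23 of 124 GFP+ windows (18.5%), beside 19.1% of all GFP- windows and 12342 of all 64960 GFP+ windows. Of the other words, the ETS word CAGGAAGT was in 2 and 5 windows, the TCF21 word AACAGCTG in 3 and 1, the AP-1 word TGACTCA in 5 and 5, the SOX word CCATTGT in 2 and 1, the GATA word AGATAAG in 4 and 5, and the TEAD word ACATTCC in 3 and 1, for GFP- and GFP+ in that order. Their shares over all peaks were 2.89 and 3.18% for ETS, 3.02 and 1.87% for TCF21, 7.79 and 5.89% for AP-1, 2.19 and 2.82% for SOX, 3.16 and 3.26% for GATA, and 4.18 and 3.76% for TEAD. Among peaks without a counterpart, ETS was in 2 of 24 GFP+ and 0 of 45 GFP- windows, beside 5.92% and 3.23% of all such peaks, and TCF21 in 0 and 2, beside 2.11% and 5.52%. AP-1 was in 1 and 2 of these windows, beside 6.24% and 11.6% of all such peaks, and TEAD in 0 and 2, beside 3.93% and 4.98%. GATA was in 1 and 0, beside 3.86% and 3.32%, and SOX in none, beside 5.86% and 2.01%.

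Over whole peaks, a search added after the windows had been seen, the palindrome was found at 2 places in the family, both in *Nfia*. One is in the largest intronic *Nfia* peak, present in both lists, and the other at the upstream edge of the second start, inside the GFP+ peak but just outside the GFP- peak, which begins at chr4:97776621. Over all whole peaks it was in 0.132% of GFP- and 0.146% of GFP+ peaks. Both places are shown in 100 bp with the palindrome, and in the start peak also a single TTGGCA word read on the other strand, in capitals. A match to letters is a description and not evidence of binding.
Nfia start peak, plus strand, chr4:97776463-97776562: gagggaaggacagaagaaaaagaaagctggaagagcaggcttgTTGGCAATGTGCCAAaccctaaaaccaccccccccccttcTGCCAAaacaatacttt
Nfia intron peak, plus strand, chr4:97869216-97869315: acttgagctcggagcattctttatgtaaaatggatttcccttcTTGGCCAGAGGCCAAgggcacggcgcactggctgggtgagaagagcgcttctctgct

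Genes with a similar profile were sought among 635 genes with at least 20 regions, by the distance over 4 scaled values, the highest start percentile and the covered share of the gene in each list. Nearest to *Nfia* were *Asap1* and *Mbnl1*, at distances of 0.0446 and 0.0514. Nearest to *Nfib* were *Rapgef2* (0.0671) and *Hivep2* (0.0799), and nearest to *Nfix* were *Synpo* (0.0765) and *Klf13* (0.345). *Nfic*, with 15 regions, was under the limit.

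Of 10 genes listed as possible partners of NFI proteins, 9 had a start peak in GFP- and 7 in GFP+, where 61.8% and 59.8% of all protein-coding genes had one. Whether their products act with NFI proteins in these cells was not tested. The glucocorticoid receptor gene *Nr3c1*, a nuclear receptor that binds beside NFI sites, ranked at 99.9 in both, and *Jun*, an AP-1 subunit, at 99.97 in both. *Sox9* (89.1) and *Tcf21* (83.8), factors of mesenchymal cells, had a start peak in GFP- only. *Tcf21* is also among the fibroblast markers above, and *Tead1* of this list among the TEAD genes, so their values are not separate observations. None of the 10 was higher in GFP+ by over 20 points. Of 11 genes described as NFI targets in other tissues, 11 and 9 had start peaks. Among them *Col1a1* and *Col1a2* are also fibroblast markers above. *Col1a2*, a collagen chain, ranked at 78.3 in GFP- with no start peak in GFP+, as did *Fabp7*, a fatty acid binding protein of glia, at 28.2. The muscle enolase gene *Eno3* ranked at 99.8 and 99.6, and *Ckm*, muscle creatine kinase, at 89.0 and 96.0.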

How the data were processed

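ATAC-Seq libraries of GFP- and GFP+ heart nuclei (2 samples each) were grouped by their labels. The authors trimmed reads, mapped them to mm10 with bowtie2, removed duplicates, downsampled the reads and ran the peak caller Genrich on the replicates of a population jointly. The deposited lists give each peak an area, a signal summed over its length, a score derived from that signal, and the -log10 p-value of its summit; q-values are not filled in. Area grows with peak length, and lists called separately differ in length, so percentiles within a list were compared. The smallest area was 200.01 in either list when rounded to 2 decimals. The labels give 2.5 µL of Tn5 per 50000 nuclei, and the methods give another amount.

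A peak was shared if at least 1 bp of it lay in a peak of the other list. Genes and starts came from GENCODE M21, and sequence from GRCm38.p6, with Python 3.11.15, pandas 2.3.3, scipy 1.17.1, pysam 0.24.0 and samtools 1.23.1. Figures were drawn with matplotlib 3.10.9. Scripts were tested on simulated data. Named peaks were those at starts, the largest away from starts, and the largest without a counterpart, by gene and list. Other peaks were named after their values were seen. The members, comparison families and gene lists were chosen with earlier results of these data known. The values of 1 listed gene are not reported here. Read counts, single replicates and differential tests were not analysed here. Alternatives changed the overlap, the peak threshold, the flanks, the measure for ranking and the starts.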

Additional observations from a re-analysis of the deposited data

How the results depend on the processing

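No paired analysis was possible because each population has 1 peak list, and leaving out a replicate could not be done for the same reason. Of 55 values recomputed under 11 alternatives, 46 stayed within the interval of the reported value, within 1.5 times a count, or within 5 percentile points of a start difference. With an overlap of at least 50% of both peaks, 56.4% of GFP- and 63.7% of GFP+ peaks at the NFI genes were shared. With the 50000 peaks of largest area in each list, 84 GFP- and 90 GFP+ peaks remained, of which 83.3% and 82.2% were shared. In that setting the median difference over regions turned from -4.25 to 0.280 points. With a minimum area of 400, 87.1% of GFP+ peaks were shared. With ranks by summit p-value, the highest start of *Nfix* differed by -7.53 points, and with ranks by area per bp it differed by -12.2 and that of *Nfia* by -6.72. The small start difference of *Nfic* turned sign within 5 points (-1.25 by summit p-value and -4.03 by area per bp). That of *Nfib* by area per bp (0.134) compares different starts, Nfib-211 in GFP+ and Nfib-201 to Nfib-210 in GFP-. The smaller lists hold fewer peaks by construction. The cause of the other changes was not tested. Leaving out peaks inside or at the start of another protein-coding gene, chosen after seeing the data, left 132 GFP- and 115 GFP+ peaks, with 65.9% and 80% shared.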
